A study of Caenorhabditis elegans with 2 samples.

Results

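The genes of the ubiquitin and proteasome system described here were the 68 protein-coding genes, of 19985 in the annotation, whose names mark them as proteasome subunits (pas, pbs, rpt and rpn), ubiquitin (ubq), E1 activating enzymes (uba), E2 conjugating enzymes (ubc), ufd or npl genes, or 1 of the 3 cdc-48 genes. The rule uses gene names and no measured value, but it was drawn up with earlier results of these data known. Binding of F22D6.2 fused to GFP had been mapped by chromatin immunoprecipitation and sequencing (ChIP-seq) with an antibody against GFP in whole Caenorhabditis elegans. The worms were young adult hermaphrodites of strain OP399, genotype unc-119(tm4063) III; wgIs399, in which a stable transgene puts GFP and FLAG at the C-terminus of F22D6.2, collected 67 hours after synchronization by bleaching and L1 starvation. There were 2 biological replicates of this 1 group and no second genotype, stage or treatment, so no contrast between conditions and no p-value is given. The promoter of the transgene, its copy number and the tissues that express it are not stated in the labels, and whole worms mix all tissues.

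Ubiquitin is activated by an E1 enzyme, passed to an E2 enzyme and attached to substrates with the help of E3 ligases. Chains of ubiquitin direct proteins to the 26S proteasome, in which the barrel-shaped 20S core holds the proteolytic sites and the 19S cap recognises, unfolds and deubiquitinates the substrate. CDC-48, the worm counterpart of p97 or VCP, is an AAA ATPase that pulls ubiquitinated proteins out of complexes and membranes, with UFD-1 and NPL-4 as its adaptor pair.

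Most of these genes had a listed summit close to the annotated 5' end, and 6 had a summit in the authors' thresholded set, namely cdc-48.1, rpn-3, rpn-11, ubc-6, ufd-3 and ubc-3. A gene was called listed when the position of highest signal of a region (its summit) in the authors' list pooled from both replicates lay within 500 bp of the 5' end. This was so for 41 of the 68 genes (60.3%), against 30.2% of all protein-coding genes. In both replicate lists, 25 genes (36.8%) had a summit in this window, against 16.1% of all. A thresholded summit was present at 6 genes (8.82%), against 2.06% of all. For 4 genes, cdc-48.1, rpn-3, rpn-11 and ufd-3, the highest summit was among the 798 highest of each replicate list (5.88%, against 1.31% of all), 798 being the size of the thresholded set. The pooled and replicate lists hold background regions beside peaks, so a listed summit is a weaker statement than a thresholded one.

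**Figure D1:**
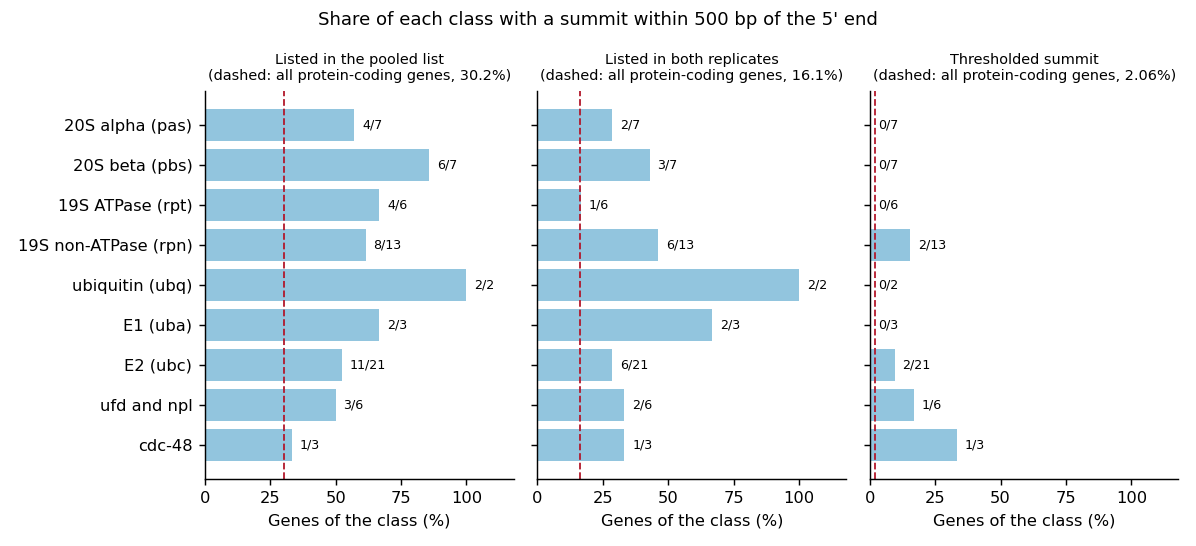
Share of each class of genes (bars, percent of the class) with a summit within 500 bp of the 5' end in the pooled list, in both replicate lists and in the thresholded set, with the number of genes at each bar. The dashed lines mark all protein-coding genes (30.2%, 16.1% and 2.06%), and the thresholded set holds no 20S core, 19S ATPase, ubiquitin or E1 gene.

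The highest value was at cdc-48.1, on chromosome II. The signal values are the authors' own, as deposited by them, on a scale that the labels do not state, and are used here only to describe and rank regions within a list. The summit of cdc-48.1 was at rank 49 of 25000 in replicate 1 (151), at rank 26 of 23268 in replicate 2 (217) and at rank 35 of 26002 in the pooled list (374). Only 16 nuclear regions of the pooled list stood higher. Ranked by their highest summit, cdc-48.1 was 5th of 6025 listed nuclear genes. The region ran from 10563408 to 10563725 on ce11, wholly upstream of the gene, and had its highest point at 10563582, 175 bp from the 5' end. The replicate summits lay 179 and 173 bp upstream, and no other protein-coding gene had its 5' end within 500 bp of the pooled summit.

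The other genes that stood high in each replicate were rpn-3, rpn-11 and ufd-3. At rpn-3, which encodes a lid subunit of the 19S cap, the summit was at rank 126 in replicate 1 (90.7), rank 101 in replicate 2 (105) and rank 116 in the pooled list (192), 205 bp upstream. At rpn-11, which encodes the deubiquitinase of the lid, the ranks were 495 (52.6) and 483 (54.0), and the pooled value was 112.8 at rank 389, 3 bp inside the gene. At ufd-3, the worm counterpart of a yeast Cdc48-binding protein, they were 554 (49.8) and 553 (51.5), with a pooled value of 100.5, 138 bp upstream. At ubc-6, an E2 gene, the ranks were further apart, at 909 (39.9) and 383 (59.8), with a pooled value of 102 at rank 485, 281 bp upstream.

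The DNA under these summits is shown because the 5 genes carry the highest values of the 68. Each line gives the bases within 50 bp of the pooled summit, or for rpn-11 only those outside its untranslated region, on the gene's strand, 5' to 3', from the RefSeq copy of WBcel235. The windows are chrII:10563532-10563632 (minus strand) for cdc-48.1, chrIII:8447098-8447198 (plus) for rpn-3, chrII:4044547-4044593 (minus) for rpn-11, chrII:7478856-7478956 (plus) for ubc-6 and chrII:9940565-9940665 (plus) for ufd-3. Capitals mark, on either strand, TGTCAT (the core of the SKN-1 site), TTCCCGC or TTCGCGC (letters of the E2F site family), TGACGTG (the core of XBP1 and ATF6 type sites), or 3 joined units of a heat shock element.
cdc-48.1: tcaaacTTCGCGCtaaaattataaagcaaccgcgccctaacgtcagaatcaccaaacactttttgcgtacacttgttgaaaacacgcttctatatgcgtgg
rpn-3: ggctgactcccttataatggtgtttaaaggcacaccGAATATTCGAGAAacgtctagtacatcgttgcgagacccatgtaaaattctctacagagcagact
rpn-11: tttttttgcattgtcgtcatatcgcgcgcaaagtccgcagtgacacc
ubc-6: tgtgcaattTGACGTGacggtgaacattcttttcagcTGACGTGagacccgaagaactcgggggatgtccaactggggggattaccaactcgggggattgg
ufd-3: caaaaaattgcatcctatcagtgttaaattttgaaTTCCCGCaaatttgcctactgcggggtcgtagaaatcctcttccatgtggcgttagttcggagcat
The capitalised motifs other than TGTCAT were added after these windows had been read, so their presence here is a description of the choice. The 5 windows did not share any of them, and the printed stretch of rpn-11 held none, its TGTCAT being in the part that is not shown.

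The 3 genes whose printed windows follow come from the proteasome and lie below the thresholded set. They are shown because the SKN-1 core falls under their summits and their windows lie wholly upstream of the gene. The core also lay under the summits of the proteasome genes pas-1 and rpn-6.1, which are not shown because the window of pas-1 lies inside the gene and that of rpn-6.1 is partly untranslated region. RPN-2 is a scaffold of the 19S base, RPT-2 an ATPase of the base and PAS-2 an alpha subunit of the core. The windows are chrIII:6198838-6198938 (plus), chrV:6017758-6017858 (minus) and chrV:10770245-10770345 (plus), with the same capitals.
rpn-2: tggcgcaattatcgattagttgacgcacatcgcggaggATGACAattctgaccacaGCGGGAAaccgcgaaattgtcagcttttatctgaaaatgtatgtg
rpt-2: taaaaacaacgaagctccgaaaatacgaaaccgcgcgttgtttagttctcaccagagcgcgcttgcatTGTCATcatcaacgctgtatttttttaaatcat
pas-2: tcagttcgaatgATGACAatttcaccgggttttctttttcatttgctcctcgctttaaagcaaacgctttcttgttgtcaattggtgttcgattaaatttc
Their pooled values were 45.9 for rpn-2 (rank 2521), 34.9 for rpt-2 (rank 4671) and 21.1 for pas-2 (rank 14496). The motif was thus found over a wide range of values.

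The remaining thresholded gene was ubc-3, which encodes an E2 of the CDC34 type and lies on chromosome I. The summit, 366 bp before the gene's start, was at rank 1265 in replicate 1 (34.8), rank 609 in replicate 2 (49.6) and rank 654 in the pooled list (89.1). The lowest value in the thresholded set was 80.3, so ubc-3 stood nearest to its lower end among the 6. Across the 6 genes, the replicate summits lay 1 to 54 bp apart.

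**Figure D2:**
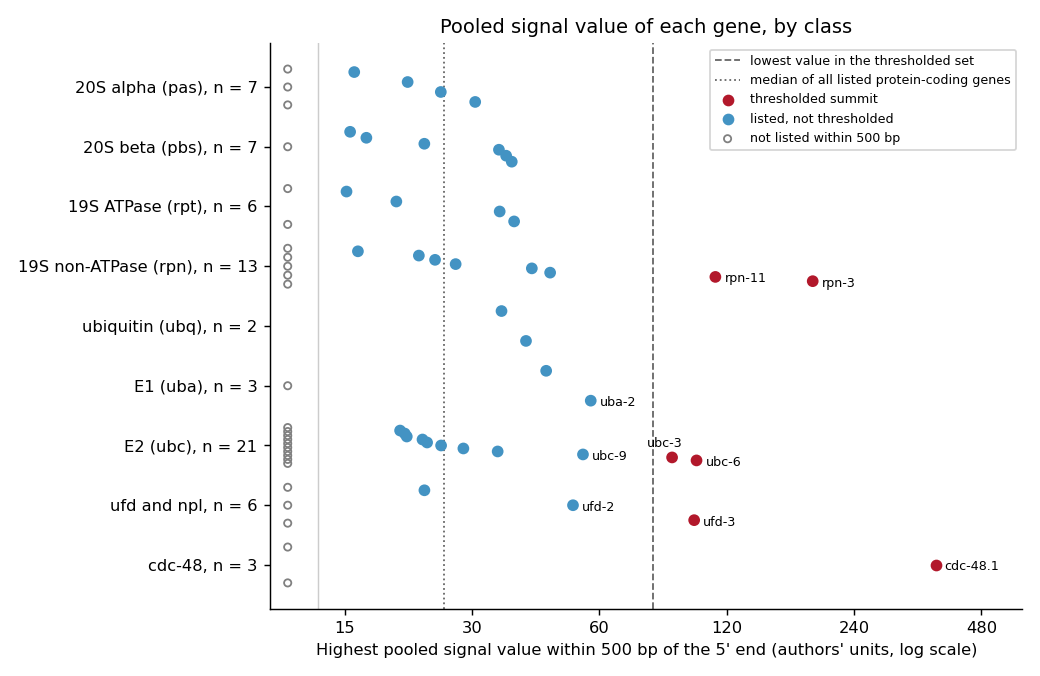
Highest pooled signal value within 500 bp of the 5' end (log axis, authors' units) for each of the 68 genes, by class, with open circles for genes that are not listed. The dashed line is the lowest value of the thresholded set (80.3) and the dotted line the median of all listed protein-coding genes (25.7). The 6 thresholded genes lie to the right of the dashed line, which is the edge of that set, and the 20S core genes end at 37.2.

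The 3 cdc-48 genes differed. Around cdc-48.2, which encodes a close relative of CDC-48.1, the nearest pooled summit lay 700 bp upstream with a value of 19.1 (rank 17615), and neither replicate listed a summit within 500 bp. Around cdc-48.3, the nearest pooled summit was 2394 bp inside the gene, with a value of 20.4 (rank 15523), and again neither replicate listed a summit in the window. At these genes the lists therefore held nothing of the size seen at cdc-48.1. A global alignment of the 1001 bp around the 5' ends gave 61.8% identity between cdc-48.1 and cdc-48.2 and 61.5% between cdc-48.1 and cdc-48.3. These values were close to the 60.5% of rpn-6.1 and rpn-6.2 and the 59.9% of ubq-1 and ubq-2. No unrelated sequences were aligned, so such values are not read as similarity between these stretches.

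**Figure D3:**
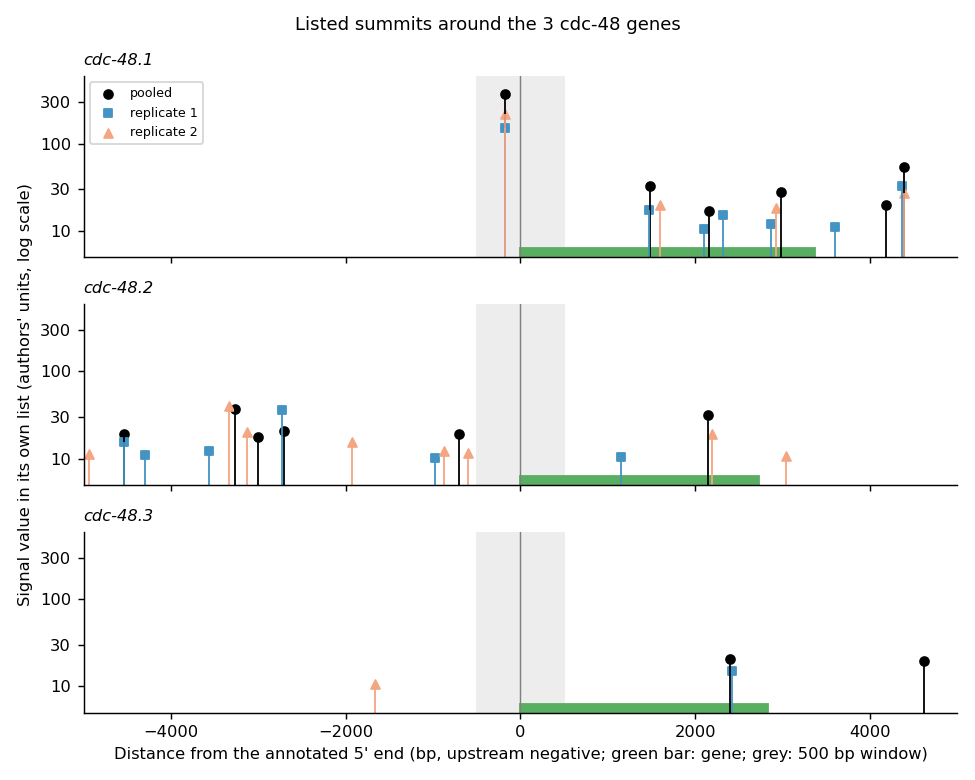
Listed summits within 5000 bp of the 5' ends of cdc-48.1, cdc-48.2 and cdc-48.3, by distance from the 5' end (bp, upstream negative) and signal value in their own list (log axis, authors' units), for the pooled list and both replicates. The pooled summit 175 bp upstream of cdc-48.1 (374) has a counterpart in each replicate, and the grey windows of cdc-48.2 and cdc-48.3 hold no summit.

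Of the 6 ufd and npl genes, 3 were listed (50%, against 30.2% of all genes). UFD-2 is a factor that elongates ubiquitin chains, and its gene had a value of 11.1 in replicate 1 (rank 19535), 48.9 in replicate 2 (rank 636) and 52.0 in the pooled list (rank 1972), 267 bp upstream. The replicates thus disagreed on ufd-2, which stood within the top 78.1% of regions in replicate 1 and the top 2.73% in replicate 2. The gene for the adaptor UFD-1 was listed at 25.6 in replicate 1 (rank 2596) and 23.2 in the pooled list (rank 11881), 330 bp upstream, and replicate 2 listed no summit there. That summit also lay inside the neighbouring gene F19B6.1, which ends 86 bp upstream of ufd-1. The genes npl-4.1 and npl-4.2, both named for the partner of UFD-1, had no listed summit within 500 bp, and the nearest pooled ones were 2268 bp downstream and 1979 bp upstream. These 2 copies are identical at 1000 of the 1001 bp around their 5' ends. Reads from such copies cannot be placed on either by sequence, and how the authors treated them is not stated in the labels. The gene npl-10 is counted here by its name alone. Its role is not annotated in the sources used, and none is given to it. It was not listed, its nearest pooled summit being 3031 bp downstream.

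Both ubiquitin genes were listed in each replicate, below the thresholded set. At ubq-1, which encodes polyubiquitin, the value was 27.2 in replicate 1 (rank 2265), 10.8 in replicate 2 (rank 20085) and 40.2 in the pooled list (rank 3342), 381 bp downstream of the 5' end. Its replicate summits lay 11 bp apart, but stood within the top 9.06% and the top 86.3% of their lists. At ubq-2, which encodes ubiquitin fused to a ribosomal protein, the values were 20.9 and 17.6 in the replicates and 35.2 in the pooled list. Its pooled summit lay 471 bp upstream, near the edge of the window and closer to the divergent gene frg-1, whose 5' end was 168 bp away. The replicate summits of ubq-2 were 903 bp apart and so do not mark the same place.

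Of the 3 E1 genes, uba-2 and uba-1 were listed in both replicates (66.7%, against 16.1% of all genes). UBA-2 is a subunit of the SUMO activating enzyme, and its gene had 25.95 in replicate 1 (rank 2518), 31.3 in replicate 2 (rank 1736) and 57.2 in the pooled list (rank 1591). This was the highest value outside the thresholded genes, but its summit, 308 bp upstream, was only 5 bp from the 5' end of the divergent gene vps-25. UBA-1 activates ubiquitin itself, and its gene had 29.6, 22.6 and 44.9 in the same order, with the pooled summit 219 bp downstream. UBA-5 activates the ubiquitin-like protein UFM1. Its gene was not called listed, because its nearest pooled summit, with a value of 61.2 at rank 1389, lay 516 bp downstream, just outside the window. At the other side of the limit, ubq-2 at 471 bp upstream and ubc-1 at 474 bp downstream (28.6) were just inside.

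Of the 21 E2 genes, 11 were listed (52.4%, against 30.2% of all genes), and 6 were listed in both replicates (28.6%, against 16.1%). After ubc-6 and ubc-3, the highest was ubc-9, which encodes the SUMO E2, with 17.7 in replicate 1 (rank 6831), 33.2 in replicate 2 (rank 1525) and 54.9 in the pooled list (rank 1744), 228 bp upstream. The gene ubc-12, for the NEDD8 E2, had a pooled value of 34.5, and ubc-13, whose product builds chains linked through lysine 63, had 20.3. The median over the 11 listed E2 genes was 25.4, near the 25.7 of all listed protein-coding genes. At ubc-8 the replicate values were 12.5 and 20.6 (the top 62.9% and the top 20.5%), and the summits lay 667 bp apart. The 10 E2 genes without a pooled summit in the window were ubc-14, ubc-15 and ubc-17 to ubc-24, and the 4 of them on X were ubc-17, ubc-21, ubc-22 and ubc-23.

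The 14 genes of the 20S core were often listed (10 of 14, 71.4%, against 30.2% of all), at values near those of listed genes in general. Their median was 24.2, against 25.7 for all listed protein-coding genes. Of 7 alpha genes, 4 were listed, with a median of 23.2 and a range of 15.8 to 30.5. Of 7 beta genes, which include those of the proteolytic subunits, 6 were listed, with a median of 28.9 and a range of 15.5 to 37.2. The highest core genes were pbs-7 (27.5 in replicate 1, 17.5 in replicate 2, 37.2 pooled) and pbs-3 (14.7, 18.5 and 36.1). No 20S gene had a thresholded summit, but only 2.06% of all genes did, so with 14 genes this does not set them apart. In both replicates, 5 of 14 were listed (35.7%, against 16.1% of all).

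The 19S cap differed from gene to gene. Of the 6 ATPase genes, 4 were listed (66.7%, against 30.2% of all genes). Their values ran from 15.2 at rpt-3, near the end of the pooled list at rank 25982, to 37.7 at rpt-6 (14.3 in replicate 1 and 28.5 in replicate 2). Only rpt-6 was listed in both replicates (16.7%, near the 16.1% of all genes). Of the 13 non-ATPase genes, 8 were listed (61.5%), with a median of 34.5. Below rpn-3 and rpn-11 came rpn-2, with 22.3, 25.2 and 45.9 in replicate 1, replicate 2 and the pooled list, and rpn-8, the gene of the partner of RPN-11 in the lid, with 26.9, 23.9 and 41.5. The ranks in replicate 1 and replicate 2 were 3707 and 2913 for rpn-2 and 2317 and 3299 for rpn-8, so their order was reversed between the replicates. Of the genes for the ubiquitin receptors, rpn-13 had a pooled value of 22.5 and rpn-10 was not listed. Also without a pooled summit in the window were rpn-1, rpn-5, rpn-6.2 and rpn-7. Over the whole proteasome, 22 of 33 genes (66.7%) were listed and 2 (6.06%) thresholded, and over the 35 other genes 19 (54.3%) and 4 (11.4%). Of all protein-coding genes, 30.2% were listed and 2.06% thresholded. With so few genes thresholded, these counts do not set the proteasome apart from the other genes.

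All 41 listed genes together had a median pooled value of 30.5, against 25.7 for all listed protein-coding genes. Of the 41, 6 (14.6%) stood in the top 10% of listed genes, 13 (31.7%) in the top 25% and 23 (56.1%) in the top 50%. The excess over all genes was thus in the count of genes listed and in a few high values. Of the 68, 32 had a summit in replicate 1 and 36 in replicate 2, where 28.4% and 27.8% of all protein-coding genes had one. A summit in replicate 1 alone was found at 7 genes and in replicate 2 alone at 11. Of the 46 genes with a summit in any list, 24 had it in all 3, 3 only in the pooled list (pas-5, pbs-4 and rpt-3) and 5 only in a replicate list (rpn-1, rpn-6.2, rpt-4, ubc-15 and ubc-18). No list had a summit at 22 genes.

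Agreement between the replicates is described over the genes listed in both. Across the 25 genes listed in both, Spearman's rho of the signal values was 0.66, and across all 3225 protein-coding genes listed in both it was 0.595. These are descriptions across genes of the same 2 libraries, which were called against a shared control, and genes are not replicates. Without the 6 thresholded genes, rho over the remaining 19 was 0.23. Leaving out the highest values narrows the range and by itself lowers rho, so this value is not comparable with that over all genes. The replicate summits of a gene lay within 100 bp of each other at 13 of the 25 genes (52%, against 52.3% of all genes), with a median gap of 93 bp, against 92 bp. All 6 thresholded genes were among these 13, and of the other 19 genes 7 were. At the 6 genes the rank within the thresholded set equalled the pooled rank, from 35 at cdc-48.1 to 654 at ubc-3. The set thus held the highest pooled values at least down to ubc-3, although ubc-6 and ubc-3 ranked 909 and 1265 in replicate 1. How far agreement between replicates decided membership cannot be told from the lists. The agreement at the 6 genes is in part fixed by this selection of high pooled values.

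**Figure D4:**
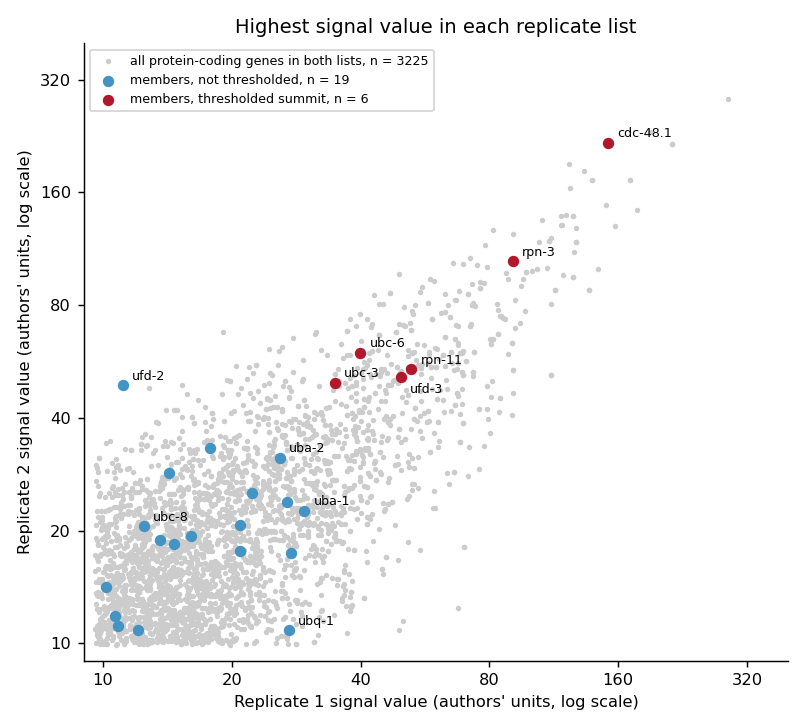
Highest signal value within 500 bp of the 5' end in replicate 1 and replicate 2 (log axes, authors' units) for the 25 genes listed in both, over all 3225 such protein-coding genes in grey. The 8 genes beyond 400 on either axis are not drawn. The 6 thresholded genes lie toward the upper right, and ufd-2 and ubq-1 lie far from the diagonal on opposite sides.

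The highest summit lay upstream of the 5' end at 29 of the 41 listed genes (70.7%), against 61.4% of all listed protein-coding genes. Of the 6 thresholded genes 5 had it upstream, and of all 411 thresholded protein-coding genes 89.1% did. The upstream summits of the 29 genes lay at a median of 267 bp, with the middle 50% between 226 and 331 bp, whereas those of all genes lay at 208 bp, between 111 and 329 bp. The bin from 300 to 200 bp upstream held 12 of the 41 genes (29.3%, against 13.4% of all) and that from 400 to 300 bp held 10 (24.4%, against 10.1%). The last 100 bp before the 5' end held only pas-2 (2.44%, against 14.1%). By these medians the upstream summits lay further from the 5' end than those of listed genes in general. Some of them lay nearer to the 5' end of a divergent neighbour, as at uba-2 (5 bp from vps-25) and ubc-12 (17 bp from rbm-3.2). Such a neighbour was annotated for 51.5% of the 68 genes, against 17.7% of all. How far neighbours account for the medians was not tested. Many worm messages receive a spliced leader in place of their first bases, so an annotated 5' end can lie downstream of where transcription starts. Whether that holds for these genes was not tested.

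**Figure D5:**
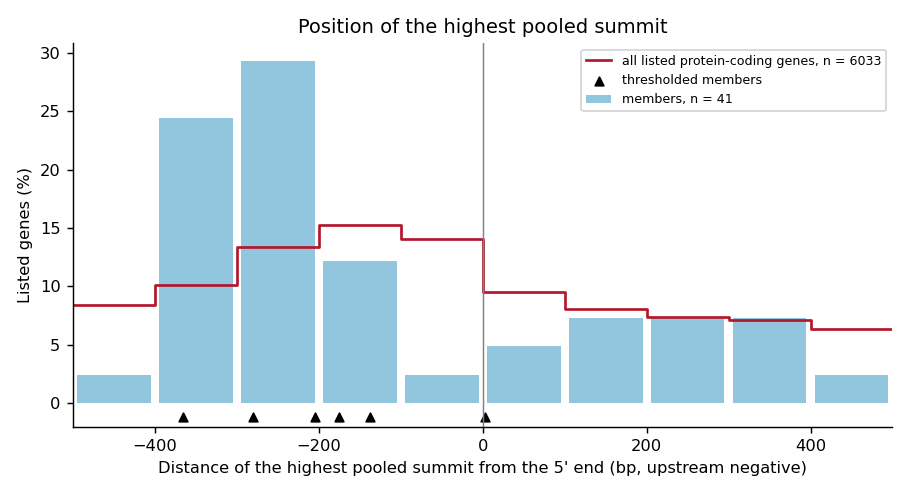
Distance of the highest pooled summit from the 5' end (bp, upstream negative, 100 bp bins) for the 41 listed genes (bars, percent) and all 6033 listed protein-coding genes (line). Triangles mark the 6 thresholded genes. The bars are highest between 400 and 200 bp upstream, and the upstream bins next to the 5' end and farthest from it hold 1 gene each.

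Many of these genes lie back to back with another gene, and a summit between 2 genes cannot be given to either. A divergent neighbour, a coding gene on the opposite strand that starts within 1000 bp upstream and is transcribed away, was annotated for 35 of the 68 genes (51.5%, against 17.7% of all protein-coding genes). Of these 35, 17 were listed (48.6%, against 39% of all such genes) and 2 thresholded (5.71%, against 4.83%, near the background). Of the 33 genes without such a neighbour, 24 were listed (72.7%, against 28.3%) and 4 were thresholded (12.1%, against 1.46%). The share listed stood further above that of all such genes in the genes without this neighbour than in the back-to-back genes. The reason was not tested. A gene on the same strand ended within 500 bp upstream of 17 genes, as in operons, and 12 of these were listed (70.6%, against 39.2%).

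The pooled summit was nearest to the named gene, among protein-coding genes, at 32 of the 41, and another protein-coding 5' end lay within 500 bp of it at 15. These shares were not computed over all listed genes, so neither count is read as particular to these genes. Among the thresholded genes, the summit of rpn-3 also lay 239 bp from hsp-110, which encodes a chaperone and points away with its 5' end 444 bp from that of rpn-3, and 53 bp from the non-coding RNA gene C30C11.14. The summit of ubc-6 lay 369 bp from aka-1 on the other side. At rpn-11 and ufd-3, the genes K07D4.2 and C05C10.5 ended 225 and 321 bp upstream on the same strand. The summit of rpn-12 was nearer to rad-23, which encodes a protein that carries ubiquitinated substrates to the proteasome, at 169 bp against 226 bp. No summit was shared by a pair of the 68 genes. Which gene of a shared summit the signal belongs to was not tested.

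By chromosome, 4 of the 6 thresholded genes were on II (4 of 17 genes there, 23.5%, against 2.26% of all genes of II), with 1 of 14 on III (against 2.84% of all genes there) and 1 of 18 on chromosome I (against 2.12%). On IV, 7 of 9 genes were listed (77.8%, against 29.6%) and 0 thresholded (against 1.58%). On V, 4 of 6 were listed (66.7%, against 26.7%) and 0 thresholded (against 1.68%). With so few genes a chromosome, a difference between chromosomes cannot be judged from these counts of thresholded genes, and none was tested. On X, 0 of 4 were listed, where 29.7% of all protein-coding genes were.

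In base composition, the 101 bp around the summits of the 41 genes had a median GC content of 41.6%, those of the 6 thresholded genes 47.5%, all pooled summits 37.6% and all thresholded summits 48.5%. The thresholded genes thus resembled other thresholded summits in this respect. In promoters, taken as 250 bp before to 50 bp after the 5' end, the median was 34.3% for the 68 genes and for all protein-coding genes.

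Letter matches in the promoters and under the summits were counted on both strands. SKN-1 is a transcription factor known in worms to raise proteasome subunit genes when the proteasome is impaired. The core of its site, TGTCAT, was found in 20 of the 68 promoters (29.4%) and in 16.3% of all protein-coding promoters. It was found in 12 of the 33 proteasome promoters (36.4%), among them rpn-11, rpn-2, rpt-2, pas-2, pbs-1 and pbs-2, and in 8 of the 35 others (22.9%), among them cdc-48.1 and ufd-3. Listed genes (13 of 41, 31.7%) and genes not listed (7 of 27, 25.9%) held it at similar shares. Under the summits it occurred in 8 of 41 windows of 101 bp (19.5%), against 5.03% of all pooled and 4.26% of all thresholded windows. The 41 summits lie within 500 bp of a coding 5' end and the compared ones anywhere, so location and kind of gene cannot be told apart here. Among the windows with the core, those of pas-1 and ubc-13 lie wholly in coding sequence. A match is a string of letters and does not show that the factor binds.

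Of the other motifs that had not been picked from these windows, none was clearly more frequent in these promoters than in all. TATCAT was found in 13.2% of them, against 19.3% of all promoters, CTGCGTC in 1.47%, against 4.33%, and CACGTG in 5.88%, against 5.81%. A run of 8 T was found in 17.6%, against 32.5%. GAGAGA occurred in 19.1%, against 21.8%, and under the summits in 7.32% of windows, against 8.97% of all pooled and 21.3% of all thresholded windows. The motifs added after the printed windows had been read were more frequent in these promoters than in all. The joined heat shock units were found in 5 of the 68 (7.35%, against 1.97%), TTCNNGAA in 29.4%, against 18.9%, and GAANNTTC in 22.1%, against 18.5%. TTCCCGC was found in 5.88%, against 3.22%, TTCGCGC in 4.41%, against 1.92%, and TGACGTG in 4.41%, against 2.93%. Since they were picked from windows of these genes, nothing is read from these shares. Under the summits, TTCGCGC lay under 5 of 41 summits (12.2%), against 0.9% of all pooled and 2.26% of all thresholded ones. TTCCCGC lay under 2 (4.88%, against 1.19% and 2.01%). TGACGTG lay only under the summit of ubc-6 (2.44%, against 0.996% and 1.63%) and the joined heat shock units only under that of rpn-3 (2.44%, against 0.454% and 0.752%). The 41 windows include those from which these motifs were picked, so nothing is read from the shares under the summits either.

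The other genes of the pathway, a list of 139 names of which 129 were found, were closer to the background as 1 set. Of these, 48 were listed (37.2%, against the 30.2% of all genes), 33 were listed in both replicates (25.6%, against 16.1%) and 3 had a thresholded summit (2.33%, against 2.06%). The 3 were lgg-2, of the LC3 family that marks autophagosomes (88.6 in replicate 1, 94.0 in replicate 2, 187 pooled, rank 123), wwp-1, a HECT ubiquitin ligase (72.1, 107 and 165, rank 151), and wdr-23, which encodes a ligase adaptor that holds SKN-1 down (55.1, 87.0 and 135, rank 252). Their summits lay 295, 276 and 106 bp upstream. Next came mib-1, a RING ligase (72.9), and ufbp-1, of the UFM1 pathway (70.2), below the thresholded set. By class, 19 of 56 ligase and adaptor genes, 7 of 23 deubiquitinase genes, 2 of 9 further CDC-48 partner genes, 14 of 29 genes of SUMO, NEDD8, UFM1 and other modifiers and 6 of 12 genes of proteasome assembly, shuttling and regulation were listed.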

How the data were processed

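ChIP-seq peak lists of the 2 replicates of 1 group were used as the authors deposited them: 25000 regions for replicate 1, 23268 for replicate 2, 26002 for both pooled and 798 in the thresholded set, all of them regions of the pooled list. Per the labels, these are peaks and background regions meant for an irreproducible discovery rate step, and the peaks that passed it; the aligner, the caller and the cutoff of that step are not stated in the sources used here. The deposited signal value is the authors' own, on a scale that is not stated. The deposited summit offset, held in the lists' last score column, is the authors' distance in bp from the region's start to its summit. Read numbers were not given in these files, so depth was unknown and no interval was computed; 2 replicates limit precision.

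Coordinates are 1-based on ce11. Genes were taken from Ensembl release 115 (WBcel235, the same assembly) and sequence from its RefSeq copy; promoters were cut from that genome in place of a RefSeq promoter table. The lists on ce10 were not used here. For each gene the highest summit within 500 bp of the 5' end was taken (Python 3.11.15, pandas 2.3.3, numpy 2.4.6, scipy 1.17.1, Biopython 1.88). The assignment of summits to genes was tested on simulated lists. The members and gene lists were chosen with earlier results of these data known. Named genes were those thresholded, the 12 highest, all cdc-48, ubq, ufd and npl genes, the 3 with the largest replicate difference in rank percentile, those with the nearest summit just inside or outside the window, and the other pathway genes that were thresholded or among the 5 highest. Further genes were named to complete a class after their values were seen. Alternatives were other windows, transcript starts, the nearest gene only, interval overlap, stricter and longer sets, and each replicate alone.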

Additional observations from a re-analysis of the deposited data

How the results depend on the processing

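The window moved the counts of listed genes most, and the size of the thresholded set moved the thresholded count most. With 250 bp instead of 500 bp, 25 of the 68 genes rather than 41 were listed (18.9% of all genes) and 10 rather than 25 in both replicates (8.1% of all). A stricter set of the 399 highest pooled regions left 3 of the 6 thresholded genes (1.06% of all genes), cdc-48.1, rpn-3 and rpn-11. The share of listed genes with an upstream summit was 63.8% with a 1000 bp window (58.9% of all listed genes), 71.9% in replicate 1 alone (58.1%) and 77.8% in replicate 2 alone (61.9%), against 70.7% (61.4%). In replicate 1 alone, 32 genes were listed (28.4% of all genes) and 4 were among the 798 highest (1.97%). In replicate 2 alone, 36 were listed (27.8%) and 7 were among the 798 highest (1.88%). Of the thresholded genes, ubc-3 and ubc-6 were missing with replicate 1 alone, and ufd-2 entered with replicate 2 alone. With transcript starts, 1000 bp or interval overlap, 43, 47 and 44 genes were listed (33.2%, 43.1% and 36.4% of all genes). The thresholded count was 6 in each (2.21%, 2.86% and 2.35% of all), so the excess over all genes was smaller at 1000 bp. Giving each summit to its nearest gene left 34 listed (27.7% of all genes) and 6 thresholded (1.66% of all). It left 3 genes high in both replicates (1.01% of all) and removed rpn-3 from them. The replicate 2 summit of rpn-3, 229 bp upstream, lay nearer to the 5' end of hsp-110. With 250 bp, 4 genes were thresholded (1.26% of all genes). At that window ubc-3 and ubc-6 had values of 29.6 and 40, uba-2 17.5, ufd-2 32.0 and rpn-8 25.8, while rpn-2 was not listed. No paired analysis was possible because there is 1 group. Unknown depth, 2 replicates sharing 1 control, and background regions within the lists limit what a low listed value shows.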
